A study of Mus musculus with 4 samples.

Results

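The genes of oxidative phosphorylation were taken as the protein-coding genes whose symbols begin with the family names of the respiratory chain and the ATP synthase. These are the mitochondrially encoded mt-Nd, mt-Co, mt-Cytb and mt-Atp genes and the nuclear Nduf, Sdh, Uqcr, Cox4 to Cox8 and Atp5 families. Of 53465 gene identifiers in the count matrix, 97 matched these names and 95 held at least 10 counts over the 4 libraries. The 95 genes comprised 13 mitochondrially encoded and 82 nuclear ones. By complex, they were 7 mitochondrial and 37 nuclear genes of complex I, 4 nuclear genes of complex II, 1 mitochondrial and 8 nuclear genes of complex III, 3 mitochondrial and 16 nuclear genes of complex IV, and 2 mitochondrial and 17 nuclear genes of complex V. Just inside the count limit were mt-Nd4l (24 counts in all) and Cox7b2 (29 counts), and just outside it were Cox8b (9 counts) and Cox8c (0 counts). The listed assembly factors, the complex III subunit gene Cyc1 and the acyl carrier protein gene Ndufab1 do not match these names. They were described in separate lists. Each class follows the symbol alone, so a gene of a class need not encode a subunit of that complex. Cox7a2l was counted in complex IV and Atp5s, named Dmac2l in RefSeq, in complex V.

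The libraries were made from poly(A) RNA of the lateral habenula, a small epithalamic nucleus between the forebrain and the monoamine neurons of the midbrain. All mice were of the strain C57BL/6 with no other allele or agent named. They were either socially isolated (2 libraries) or group-housed (2 libraries), and the sources used here name neither the length of isolation nor the age of the mice. The labels do not say whether a library came from 1 animal or a pool, or whether libraries were separate animals, so a p-value here covers only the spread among these 4 samples, which may be technical. Total counts were 26428152 and 25985591 in the isolated libraries, against 20897605 and 25640860 in the group-housed libraries. All 8 markers listed for the lateral habenula were detected, but so were all 10 medial habenula and all 10 thalamus markers. Of the lateral habenula list, Gpr151, Pou4f1 and Slc17a6 are shared by habenular nuclei or thalamus, so they do not mark the lateral habenula alone.

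Oxidative phosphorylation makes most of the ATP of a neuron. Complexes I and II pass electrons from NADH and succinate to ubiquinone, complex III passes them to cytochrome c and complex IV to oxygen. Complexes I, III and IV pump protons out of the matrix, and complex V, the ATP synthase, lets them return and makes ATP. The complexes are built from the products of both genomes, except complex II, whose subunits are all nuclear. The mitochondrial genome is transcribed from both strands into long polycistronic RNAs that are cut into mRNAs, mostly at tRNAs. The nuclear genes are transcribed singly, and NRF1, GABPA and YY1 are transcription factors known to bind promoters of many of them.

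The mitochondrially encoded mRNAs differed in their counts by several orders of magnitude. The mRNAs mt-Nd1, mt-Nd2, mt-Co1, mt-Nd4, mt-Nd5 and mt-Cytb held 154041 to 449421 counts each over the 4 libraries, or 1139 to 2960 CPM (counts relative to the scaled total of a library) per kilobase of exon. By contrast mt-Co2, mt-Atp6, mt-Co3, mt-Nd3 and mt-Nd4l held 5 to 69 counts per library, or 0.834 to 3.63 CPM per kilobase. These 5 genes and mt-Atp8 lie next to each other between mt-Co1 and mt-Nd4, all within the same polycistronic transcript as their neighbours. On the same strand, annotated exons of mt-Atp8 and mt-Atp6 overlap, as do those of mt-Nd4l and mt-Nd4. The counts of such a pair need not be those of separate mRNAs. mt-Co2, which encodes the copper-bearing subunit of complex IV that takes electrons from cytochrome c, had 22 and 23 counts in the isolated libraries, against 24 and 26 counts in the group-housed libraries. Its upstream neighbour mt-Co1, the catalytic subunit of the same complex, had 110577 and 115320 counts in the isolated libraries, against 106616 and 116908 counts in the group-housed libraries. The gap was present in every library of both groups.

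The same 5 genes were those with a near-complete copy among other annotated genes of the GENCODE annotation of GRCm38. Each gene's exon sequence was read in words of 50 bases, and the share of words also found in a transcript of another gene was taken. That share was 100% for mt-Co2, 99.9% for mt-Co3, 99.5% for mt-Atp6, 98.8% for mt-Nd4l and 98.0% for mt-Nd3. It was 62.2% for mt-Nd4 and 51.1% for mt-Co1, whose copies cover only a part of the gene, and at most 8.19% (mt-Nd2) for the other 6 mitochondrial mRNAs. The 7 copies are unprocessed pseudogenes that lie together on the minus strand of chromosome 1, between positions 24611535 and 24616197 of GRCm38. The copies Gm28661 (of mt-Co2), Gm10925 (mt-Atp6), Gm28437 (mt-Co3), Gm10222 (mt-Nd4l) and Gm28439 (mt-Nd4) had 0 differences from their mitochondrial genes over 681, 678, 783, 294 and 876 aligned bases. Gm28438 differed from mt-Nd3 in T3C alone over 345 bases, with positions counted from 1 at the first base of the gene and the mitochondrial base given first. Gm29216 differed from mt-Co1 in A1066T alone over 483 bases.

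The first 45 bases of 2 genes and their copies, read 5′ to 3′ on the coding strand of each from the GENCODE transcripts, show how little separates the mitochondrial from the chromosome 1 sequence. Capitals mark the only base that differs between mt-Nd3 (chrM:9459-9806, plus strand) and Gm28438 (chr1:24612775-24613119, minus strand), and between mt-Co2 (chrM:7013-7696, plus strand) and Gm28661 (chr1:24614885-24615565, minus strand) none differs.
mt-Nd3: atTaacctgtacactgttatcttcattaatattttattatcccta
Gm28438: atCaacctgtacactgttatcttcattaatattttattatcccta
mt-Co2: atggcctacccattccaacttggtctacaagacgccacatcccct
Gm28661: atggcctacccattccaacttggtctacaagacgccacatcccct

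A read that lies wholly within such a stretch cannot be assigned to one of the 2 places by its sequence, and the sources used here do not say how the authors' counting treated such reads. The copy Gm28438 held 270 and 217 counts in the isolated libraries, against 276 and 248 counts in the group-housed libraries, more than mt-Nd3 itself, which held 24 and 18 counts in the isolated and 22 and 23 counts in the group-housed libraries. Gm28661 held 9 and 9 counts in the isolated libraries, against 7 and 9 counts in the group-housed libraries. The counts of mt-Co2, mt-Atp6, mt-Co3, mt-Nd3 and mt-Nd4l are therefore uncertain as measures of these mRNAs, and those of mt-Nd4 and mt-Co1 are uncertain in part. Only annotated transcripts were searched, so copies elsewhere were not counted, and the part of the copies in the low counts was not tested.

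**Figure D1:**
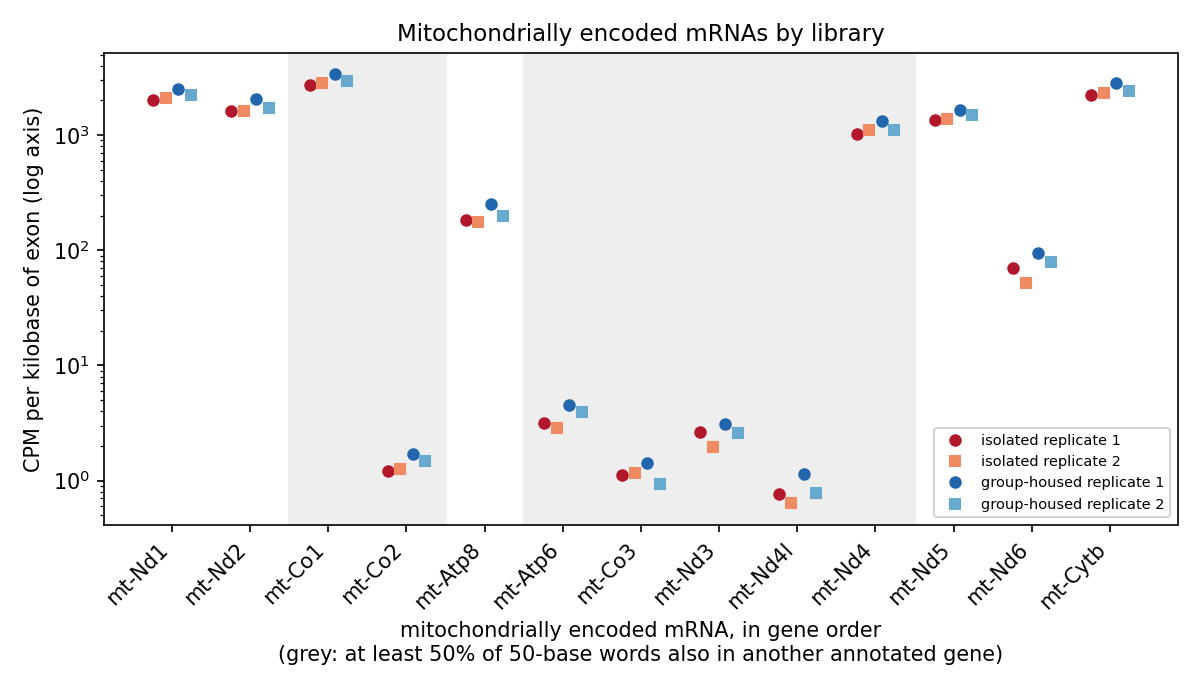
Level of each mitochondrially encoded mRNA in CPM per kilobase of exon (log axis) in each of the 4 libraries, in the order of the genes along the mitochondrial genome, with the isolated libraries left of the group-housed ones. Grey marks the 7 genes with at least 50% of their 50-base words in another annotated gene, and 5 of those 7 lie between 0.834 and 3.63 CPM per kilobase on average over the libraries.

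Among the mitochondrial mRNAs with 0% shared words, levels per length also differed. mt-Cytb, the cytochrome b subunit of complex III, had 2453 CPM per kilobase on average and mt-Nd1, a proton-pumping core subunit of complex I, had 2211. mt-Atp8, a small membrane subunit of the ATP synthase, had 203 CPM per kilobase. Its 0% refers to annotated transcripts only. mt-Atp8 lies between mt-Co2 and mt-Atp6. Between their chromosome 1 copies, from 24614651 to 24614885, only annotated transcripts were searched, so a copy of mt-Atp8 there was not tested. mt-Nd6, a complex I subunit that is the only mRNA encoded on the opposite strand, had 73.8 CPM per kilobase. In a poly(A) library the level of an mRNA such as mt-Nd6 also depends on its tail, which was not measured. Annotated exons of mt-Nd6 overlap those of mt-Nd5 at their 3′ ends, and since it is not known whether the counting used strand, reads from the 2 strands there cannot be told apart.

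Between the groups, 0 of the 93 genes that had enough counts to be tested passed the quasi-likelihood test of edgeR, with p-values adjusted by Benjamini-Hochberg over all 17528 tested genes. Among all tested genes 2, or 0.0114%, passed an adjusted p of 0.05. At an unadjusted p under 0.05, 3 of the 93 were lower and 0 higher in isolated libraries, where 2.26% of all tested genes were lower and 2.83% higher. DESeq2, limma-voom and edgeR's exact test also called 0 of these genes. The untested genes were mt-Nd4l and Cox7b2.

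The mitochondrially encoded mRNAs were lower in the isolated libraries by fitted value in 12 of 12 tested genes, by -0.22 on the log2 scale in the median (range -0.49 to -0.04). Of all tested genes, 48.8% had a fold change below 0, and their median was 0.0033. For 10 of the 12, each isolated library was below each group-housed one, against 16.3% of all tested genes. The 12 are cut from shared transcripts and measured in the same libraries, so they are not independent of each other. The highest of the 4 libraries was group-housed replicate 1 for all 12. With each gene centred on its mean, the median log2 level was -0.13 and -0.10 in the isolated libraries, against 0.25 and 0.0038 in the group-housed libraries. The 2 group-housed libraries were thus farther apart from each other than the lower of them was from either isolated library. Without group-housed replicate 1 the median log2 fold change was -0.13, and without group-housed replicate 2 it was -0.34.

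In complex I, mt-Nd1 had 1929.8 and 1994 CPM in the isolated libraries, against 2415 and 2126 CPM in the group-housed libraries. mt-Nd5, one of the antiporter-like subunits of the membrane arm, had 2443 and 2497 CPM in the isolated libraries, against 3008 and 2744 CPM in the group-housed libraries. The groups did not overlap for either gene, and mt-Nd2 and mt-Nd4, further antiporter-like subunits, were arranged in the same way. The log2 fold changes of these 4 genes lay between -0.22 and -0.19, each with a standard error (SE) of 0.10 to 0.11, and their adjusted p-values in the edgeR test were 0.974 to 0.979.

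mt-Nd6 had 36.5 and 27.2 CPM in the isolated libraries, against 48.6 and 40.9 CPM in the group-housed libraries. Neither isolated library reached the lower group-housed one, and isolated replicate 2 lay lowest. Its log2 fold change was -0.49 (SE 0.14), with an unadjusted p of 0.00678 and an adjusted p of 0.705 in the edgeR test. The outcome changed with the libraries used. Without isolated replicate 1 the log2 fold change was -0.71 with an adjusted p of 0.0144, and without isolated replicate 2 it was -0.29 with an adjusted p of 0.699. Relative to the 12 mRNAs of the other strand, the log2 ratio of mt-Nd6 counts was -8.61 and -9.08 in the isolated libraries, against -8.52 and -8.57 in the group-housed libraries. The means of the groups differed by -0.30 (exact permutation test, 2-sided, p = 0.333, the smallest that 2 against 2 libraries can give).

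In complex III, mt-Cytb had 2557 and 2673 CPM in the isolated libraries, against 3215 and 2779 CPM in the group-housed libraries (log2 fold change -0.20, SE 0.11). In complex IV, mt-Co1 had 4208 and 4351 CPM in the isolated libraries, against 5192 and 4544 CPM in the group-housed libraries (log2 fold change -0.19, SE 0.11). For both genes the groups did not overlap, and group-housed replicate 2 lay nearer to the isolated libraries than to its own group. The adjusted p-values in the edgeR test were 0.979 for both.

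In complex V, mt-Atp8 had 37.5 and 36.2 CPM in the isolated libraries, against 51.6 and 40.5 CPM in the group-housed libraries. Its log2 fold change was -0.32 (SE 0.11), with an unadjusted p of 0.0190 and an adjusted p of 0.840 in the edgeR test. mt-Atp6, the proton-channel subunit, had 2.17 and 1.96 CPM in the isolated libraries, against 3.07 and 2.68 CPM in the group-housed libraries (log2 fold change -0.47, SE 0.23). The groups did not overlap for either gene. Annotated exons of these genes overlap each other, and mt-Atp6 is among the 5 genes with few counts.

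Of the other genes with few counts, mt-Co2 had a log2 fold change of -0.35 (SE 0.31), mt-Nd3 of -0.29 (SE 0.33) and mt-Co3, the third core subunit of complex IV, of -0.04 (SE 0.34). Their SE were about the size of the changes or larger, and for mt-Nd3 and mt-Co3 the groups overlapped. The untested mt-Nd4l had 6 and 5 counts in the isolated libraries, against 7 and 6 counts in the group-housed libraries.

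**Figure D2:**
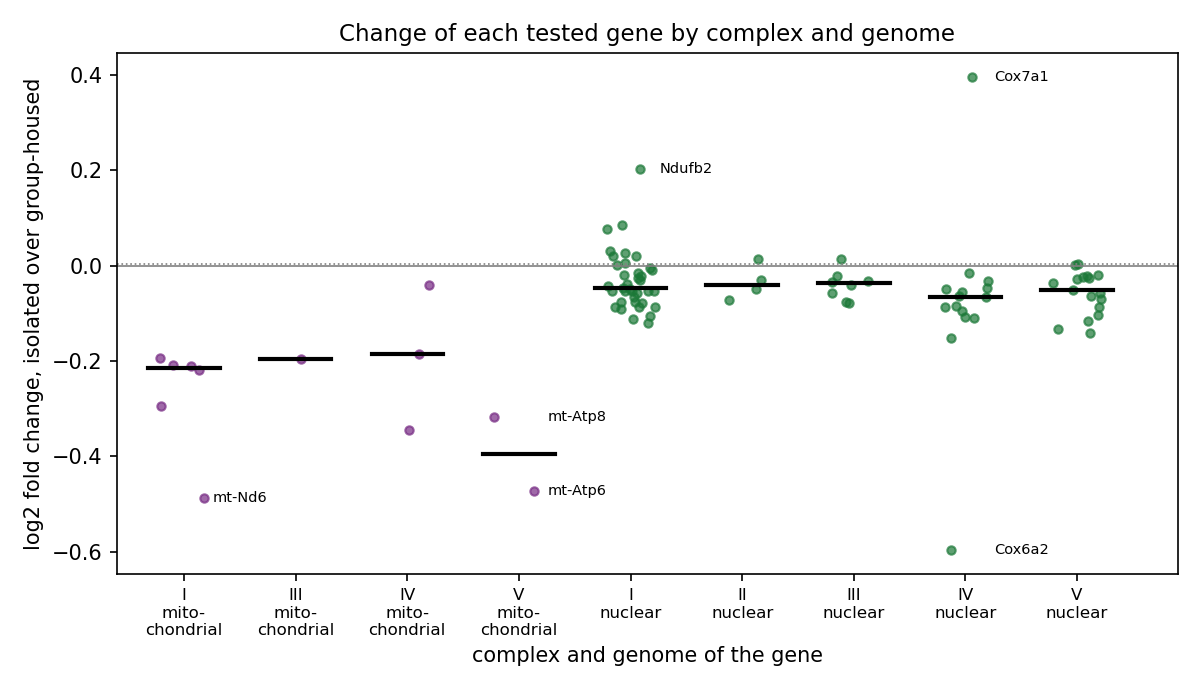
Log2 fold change, isolated over group-housed, of each tested gene (points) by complex and genome, with the class median as a black bar, 0 as a solid grey line and the median of all tested genes (0.0033) as a dotted line. All 12 mitochondrial points lie below 0 between -0.49 and -0.04, and 78 of the 81 nuclear points lie within 0.2 of 0.

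Taken as a share of all counts, the mitochondrially encoded mRNAs made up 1.42% and 1.51% of the isolated libraries, against 1.76% and 1.57% of the group-housed libraries. The mean was 1.47% ± 0.0592 in isolated and 1.66% ± 0.135 in group-housed libraries (SD, n = 2 each, exact permutation test, 2-sided, p = 0.333, the smallest possible). The groups did not overlap, and the difference of -0.195 percentage points was larger than either SD. It was -0.0991 percentage points with group-housed replicate 1 left out, and -0.290 with group-housed replicate 2 left out. Over the 6 mRNAs with few words shared with annotated transcripts alone, mt-Atp8 among them, the difference was -0.124 percentage points. Complex I mRNAs held 0.748% and 0.788% in the isolated libraries, against 0.925% and 0.826% in the group-housed libraries. The mitochondrial rRNAs, which a poly(A) library takes up only in part, held 0.267% and 0.267% in the isolated libraries, against 0.362% and 0.286% in the group-housed libraries. The mRNA to rRNA log2 ratio was 2.41 and 2.50 in the isolated libraries, against 2.28 and 2.45 in the group-housed libraries, so the groups overlapped in that ratio.

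The nuclear genes were set against the mitochondrial ones within each library, which does not depend on how libraries were scaled to each other. The log2 ratio of the median mitochondrial to the median nuclear level was 1.51 and 1.56 in the isolated libraries, against 1.84 and 1.63 in the group-housed libraries. Values of the groups did not overlap, and their means differed by -0.20 (exact permutation test, 2-sided, p = 0.333, the smallest possible). Group-housed replicate 2 lay closer to the isolated libraries than to group-housed replicate 1. These levels are in CPM with no correction for length, so only the difference between libraries is read from them. The tested mitochondrial genes fell into a high and a low set, and their median lay midway between the sets on the log2 scale. It was set by mt-Nd4 and mt-Atp8 alone, with mt-Nd6 in place of mt-Atp8 in group-housed replicate 2. The count of mt-Nd4 is uncertain in part. With summed counts in place of medians the difference was -0.15. The difference in the ratio of medians was -0.10 with group-housed replicate 1 left out, and -0.30 with group-housed replicate 2 left out.

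The nuclear genes themselves differed less between the groups. They made up 0.936% and 0.957% of all counts in the isolated libraries, against 0.983% and 0.945% in the group-housed libraries, and the groups overlapped. Of the 81 tested, 67 had a fold change below 0 and 14 above, and their log2 fold changes had a median of -0.05 and a range of -0.60 to 0.40. The change was within 0.1 of 0 on the log2 scale for 68 and within 0.2 for 78. The 95% interval of a single gene's log2 fold change reached a median of 0.155 to either side, so changes under about that size could not be shown for most of these genes. That interval is not adjusted for the 17528 genes tested, so a change would have to be larger still to pass the adjusted threshold. For 26 of the 81, each isolated library was below each group-housed one, against 16.3% of all tested genes, and for 2 each was above, against 17.4%. Group-housed replicate 1 was the highest library for 66 of the 81 genes, and the centred median was -0.02 and -0.02 in the isolated libraries, against 0.06 and -0.02 in the group-housed libraries. Without that library the nuclear median was -0.00486.

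**Figure D3:**
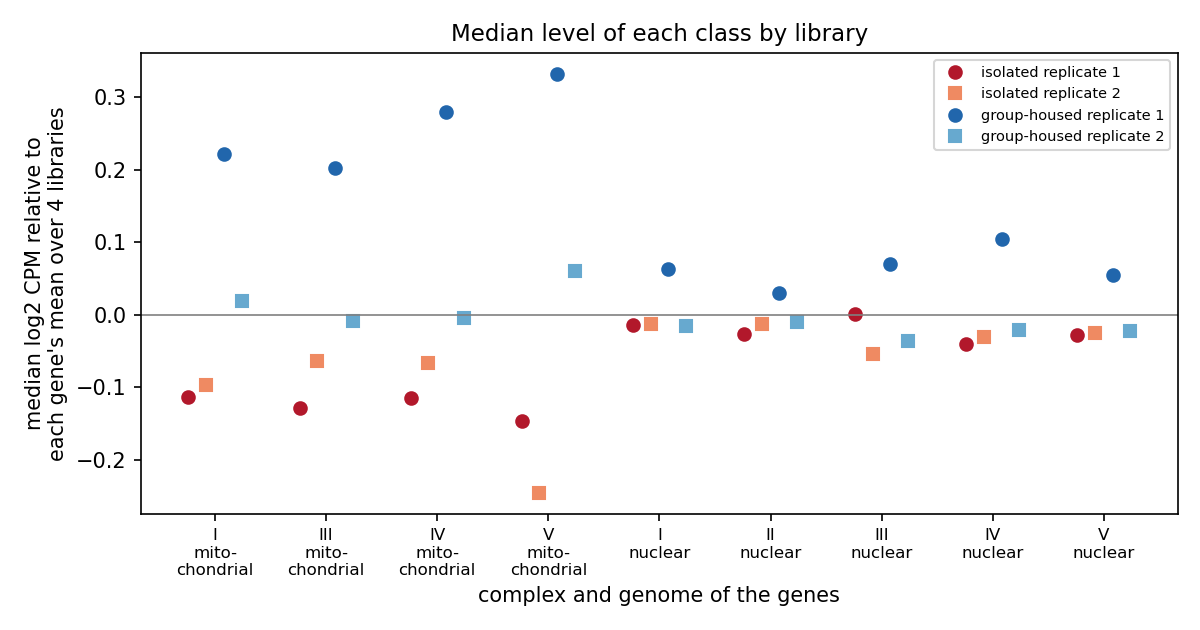
Median log2 CPM of the tested genes of each class in each library, each gene set relative to its mean over the 4 libraries, with the isolated libraries left of the group-housed ones. Group-housed replicate 1 is highest in every class, by the widest margin in the 4 mitochondrial classes, and group-housed replicate 2 lies near the isolated libraries in the nuclear classes.

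Of the 37 nuclear genes of complex I, 28 were lower and 9 higher by fitted value, with a median of -0.05 on the log2 scale. Ndufs8, a core subunit that binds iron-sulphur clusters, had 71.1 and 71.8 CPM in the isolated libraries, against 80.7 and 73.0 CPM in the group-housed libraries (log2 fold change -0.10, SE 0.07). Ndufa13, an accessory subunit of the membrane arm, had 91.8 and 98.2 CPM in the isolated libraries, against 102 and 104 CPM in the group-housed libraries (log2 fold change -0.12, SE 0.06). For these genes the isolated libraries were the lower 2 of the 4, and the adjusted p-values in the edgeR test were 0.995 and 0.979. Exons of Ndufa13 overlap Tssk6 on the opposite strand, and 28.5% of its 50-base words are shared.

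The highest fitted fold change in complex I was that of Ndufb2, an accessory subunit of the membrane arm. It had 36.3 and 32.9 CPM in the isolated libraries, against 34.2 and 26.1 CPM in the group-housed libraries (log2 fold change 0.20, SE 0.12, edgeR adjusted p = 0.979). The groups overlapped, and its annotated exons overlap those of Gm42420, Braf and Gm16272, so its count is uncertain to that extent. The gene of this class with the highest level per length was Ndufa4, with 93.9 CPM per kilobase and a log2 fold change of -0.04 (SE 0.06). Its product is now known as a subunit of complex IV, although its name places it in complex I. Ndufa1 followed with 89.8 CPM per kilobase, and Ndufa4l2, a paralog of Ndufa4 known to be induced by hypoxia, was lowest with 1.69.

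Complex II, the succinate dehydrogenase that also belongs to the tricarboxylic acid cycle, had a median log2 fold change of -0.04. Sdha, the flavoprotein that oxidises succinate, had 506 and 503 CPM in the isolated libraries, against 513 and 486 CPM in the group-housed libraries (log2 fold change 0.01, SE 0.07). The isolated values lay between the group-housed ones. Sdhb, the iron-sulphur subunit, had 113 and 114 CPM in the isolated libraries, against 118 and 117 CPM in the group-housed libraries (log2 fold change -0.05, SE 0.06). The membrane anchors Sdhc and Sdhd had log2 fold changes of -0.07 (SE 0.07) and -0.03 (SE 0.06). Per kilobase of exon the levels were 122 CPM for Sdha, 73.6 for Sdhd, 51.6 for Sdhb and 30.1 for Sdhc, although the products enter the complex in equal numbers.

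The 8 nuclear genes of complex III had a median log2 fold change of -0.04, with 7 lower and 1 higher by fitted value, and a median of 0.01 without group-housed replicate 1. Uqcrq, a small accessory subunit, had 79.6 and 75.2 CPM in the isolated libraries, against 85.0 and 78.6 CPM in the group-housed libraries (log2 fold change -0.08, SE 0.07). Uqcr11, another small subunit, had 62.2 and 50.3 CPM in the isolated libraries, against 64.6 and 54.2 CPM in the group-housed libraries (log2 fold change -0.08, SE 0.11). For Uqcr11 the replicates of each group differed by more than the means of the groups did. For Uqcrq this held for the group-housed replicates only. Levels per kilobase lay between 43.5 CPM (Uqcrq) and 111 CPM (Uqcr10), a narrower range than that of the nuclear genes of complexes I, IV and V.

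The 15 tested nuclear genes of complex IV had a median log2 fold change of -0.07, with 14 lower and 1 higher by fitted value. Cox4i1, the isoform of subunit 4 used in most tissues, had 310 and 303 CPM in the isolated libraries, against 359 and 323 CPM in the group-housed libraries. The groups did not overlap, and the log2 fold change was -0.15 (SE 0.07, edgeR adjusted p = 0.979). Exons of Cox4i1 overlap Emc8 on the opposite strand. Cox8a, the general isoform of subunit 8, had 178 and 188 CPM in the isolated libraries, against 203 and 188 CPM in the group-housed libraries (log2 fold change -0.10, SE 0.07). It had the highest level per length of all nuclear genes of the complexes, 306 CPM per kilobase, and Cox6a1 followed within complex IV with 225.

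Complex IV has several subunits that exist as a general and a tissue-restricted isoform, and in every library the general isoform was the higher one per length. Cox6a2, the heart and skeletal muscle isoform of subunit 6a, had 3.77 and 3.24 CPM in the isolated libraries, against 4.82 and 5.75 CPM in the group-housed libraries. Values of the groups did not overlap, and its log2 fold change was -0.60 (SE 0.19), with an unadjusted p of 0.0133 and an adjusted p of 0.789 in the edgeR test, the lowest fitted fold change of the 93 genes. Its exons overlap Itgad on the opposite strand. Relative to Cox6a1, the general isoform, the log2 ratio of counts per kilobase was -5.28 and -5.51 in the isolated libraries, against -5.09 and -4.74 in the group-housed libraries.

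Cox7a1, the muscle isoform of subunit 7a, had the highest fitted fold change of the 93 genes. It had 2.51 and 2.19 CPM in the isolated libraries, against 2.0 and 1.59 CPM in the group-housed libraries (log2 fold change 0.40, SE 0.25, edgeR adjusted p = 0.989). The isolated libraries were the higher 2 of the 4. Relative to Cox7a2, the log2 ratio per kilobase was -4.36 and -4.52 in the isolated libraries, against -4.82 and -4.98 in the group-housed libraries. The other isoform pairs overlapped between the groups. Cox4i2, the lung-enriched isoform of subunit 4, stood to Cox4i1 at -7.32 and -7.00 in the isolated libraries, against -7.29 and -7.14 in the group-housed libraries. Cox6b2, the testis isoform of subunit 6b, stood to Cox6b1 at -5.83 and -5.59 in the isolated libraries, against -5.78 and -5.59 in the group-housed libraries. Cox8b and Cox8c, the muscle and testis isoforms of subunit 8, held 9 and 0 counts over all 4 libraries.

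**Figure D4:**
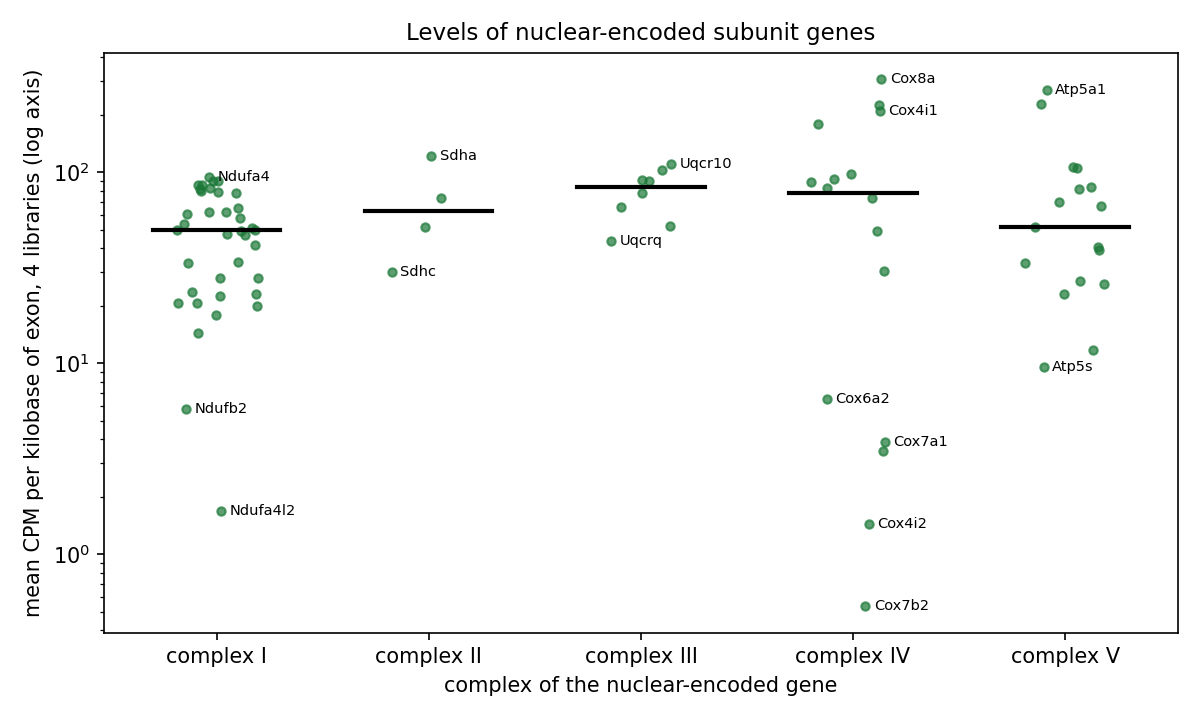
Mean level over the 4 libraries of each nuclear-encoded gene, in CPM per kilobase of exon (log axis), by complex, with the class median as a black bar. The medians lie between 49.6 (complex I) and 84.1 (complex III), and the tissue-restricted isoforms of complex IV form a separate low set down to 0.536 (Cox7b2).

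The 17 nuclear genes of complex V had a median log2 fold change of -0.05, with 15 lower and 2 higher by fitted value. The 5 subunits of the catalytic F1 part (Atp5a1, Atp5b, Atp5c1, Atp5d and Atp5e) had a median of -0.07, and the other 12 a median of -0.04. Atp5b, the catalytic beta subunit, had 950.0 and 935 CPM in the isolated libraries, against 1027 and 950.3 CPM in the group-housed libraries (log2 fold change -0.07, SE 0.08). Atp5a1, the alpha subunit, had 822 and 841 CPM in the isolated libraries, against 863 and 829 CPM in the group-housed libraries (log2 fold change -0.02, SE 0.08). Per kilobase they were the highest of the class, with 267 CPM for Atp5a1 and 228 CPM for Atp5b. Atp5c1, the central stalk subunit, had 193 and 198 CPM in the isolated libraries, against 208 and 207 CPM in the group-housed libraries (log2 fold change -0.09, SE 0.06).

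The membrane subunits Atp5l and Atp5j2 had log2 fold changes of -0.12 (SE 0.07) and -0.10 (SE 0.07), with edgeR adjusted p-values of 0.994 and 0.996. The c ring, through which protons turn the rotor, is built from 1 mature protein encoded by 3 genes. Atp5g3 had 154 and 146 CPM in the isolated libraries, against 160 and 151 CPM in the group-housed libraries. Atp5g1 had 114 and 111 CPM in the isolated libraries, against 117 and 108 CPM in the group-housed libraries. Atp5g2 had 63.5 and 64.2 CPM in the isolated libraries, against 68.7 and 64.9 CPM in the group-housed libraries. Per kilobase of exon the order of levels was Atp5g3 (70.1 CPM), Atp5g2 (39.0) and Atp5g1 (22.9), and their log2 fold changes were -0.05, -0.06 and 0.00361, each with an SE of 0.06. Of Atp5g2's 50-base words, 38.4% are shared with other annotated transcripts, so its level is uncertain.

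Promoter sequences of RefSeq (GRCm38.p6, 250 bases before to 50 after the start of the gene) were found for 67 of the 82 nuclear genes and searched on both strands for 1 core motif each of NRF1 (GCGCANGCG), GABPA (CCGGAAG) and YY1 (AAGATGGC). The NRF1 motif stood in 19 of the 67 promoters (28.4%), against 6.47% of 27025 promoters of all genes. The GABPA motif stood in 15 (22.4%), against 9.12%, and the YY1 motif in 9 (13.4%), against 2.88%. At least 1 of the 3 stood in 36 (53.7%), against 16.5%, and no promoter held overlapping matches of different factors. A match of letters is a description of the sequence and was not tied to any value here.

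The promoters of 2 complex IV isoforms are shown as examples with and without matches. They do not stand for a link between matches and level, which was not tested. The general isoforms Cox6b1 and Cox8a held the GABPA motif, whereas Cox7a2, the general isoform beside Cox7a1, held none of the 3 motifs. Capitals mark the matches. Cox6a1 (chr5:115348909-115349208, minus strand) has 3 matches of the NRF1 motif, of which 2 lie on opposite strands of the same bases, and 1 of the GABPA motif. Cox7a1 (chr7:30183921-30184220, plus strand) has none of the 3 motifs.
Cox6a1: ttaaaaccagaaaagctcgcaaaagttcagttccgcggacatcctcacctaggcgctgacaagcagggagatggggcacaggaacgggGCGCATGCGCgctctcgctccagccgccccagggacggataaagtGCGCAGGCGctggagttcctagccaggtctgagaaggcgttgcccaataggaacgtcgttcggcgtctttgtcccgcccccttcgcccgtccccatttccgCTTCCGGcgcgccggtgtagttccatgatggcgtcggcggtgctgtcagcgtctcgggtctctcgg
Cox7a1: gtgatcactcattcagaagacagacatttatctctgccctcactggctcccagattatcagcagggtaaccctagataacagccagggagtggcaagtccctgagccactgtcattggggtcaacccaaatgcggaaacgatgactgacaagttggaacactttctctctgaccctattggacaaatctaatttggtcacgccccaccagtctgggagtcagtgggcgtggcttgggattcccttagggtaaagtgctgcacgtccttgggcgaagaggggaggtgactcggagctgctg

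Other mitochondrial gene lists were read beside the subunits, and in none of the 11 did a gene pass the edgeR test. The median log2 fold changes of the lists lay between -0.06 and 0.02. The assembly factors of complex I had 17 tested genes, of which 9 were higher and 8 lower by fitted value, and the smallest p-values were those of Tmem186 (log2 fold change 0.13, SE 0.08) and Dmac1 (-0.17, SE 0.10). Those of complex IV had 23, of which 10 were higher and 13 lower, with Pet100 at -0.28 (SE 0.16) and Cox14 at 0.13 (SE 0.08). Those of complex V had 5, of which 2 were higher and 3 lower, with a median of -0.06, Tmem70 at 0.15 (SE 0.08) and Atpaf1 at -0.06 (SE 0.06). The assembly factors of complex II were lower in 4 of 4, with a median of -0.06, and Sdhaf3 had 17.5 and 16.7 CPM in the isolated libraries, against 19.6 and 19.6 CPM in the group-housed libraries (log2 fold change -0.20, SE 0.09), with Sdhaf2 at -0.06 (SE 0.07). Of the 6 assembly factors of complex III, 5 were lower, with a median of -0.05, Uqcc2 at -0.12 (SE 0.08) and Uqcc1 at 0.07 (SE 0.06). Exons of Tmem186, Pet100 and Sdhaf2 overlap another gene on the opposite strand, so their counts are uncertain to that extent.

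Genes for replication and transcription of mitochondrial DNA were higher in 11 and lower in 7 of 18, with a median of 0.02. Genes for processing and stability of mitochondrial RNA were higher in 8 and lower in 8 of 16, with a median of 0.00047, Fastkd1 at 0.12 (SE 0.08) and Elac2 at -0.09 (SE 0.07). In the first list Mterf1a, a mitochondrial termination factor gene, had 3.27 and 2.91 CPM in the isolated libraries, against 4.38 and 3.96 CPM in the group-housed libraries (log2 fold change -0.43, SE 0.20, edgeR adjusted p = 0.979), and Mterf3 was at 0.17 (SE 0.09). A list of ubiquinone synthesis genes with Cycs (cytochrome c), Cyc1 and Ndufab1 was higher in 7 of 12, with a median of 0.02. In it Coq4 was at 0.21 (SE 0.11) and Coq9 at 0.08 (SE 0.07). Exons of Elac2, Mterf3, Coq4 and Coq9 also overlap an opposite-strand gene. By fitted value the tricarboxylic acid cycle was lower in 12 of 17 with a median of -0.02, with Suclg2 at -0.10 (SE 0.08) and citrate synthase (Cs) at -0.09 (SE 0.07). The carriers and uncoupling proteins were lower in 10 of 16 with a median of -0.03. Slc25a27, a brain uncoupling protein gene, had 80.1 and 81.5 CPM in the isolated libraries, against 71.5 and 75.0 CPM in the group-housed libraries (log2 fold change 0.14, SE 0.06, edgeR adjusted p = 0.974), and Mpc2, a pyruvate carrier gene, was at -0.16 (SE 0.07).

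Among 12 regulators of nuclear respiratory genes, 5 were higher and 7 lower, with a median of -0.0043. Ppargc1b, a transcriptional coactivator of mitochondrial genes, had 17.7 and 17.5 CPM in the isolated libraries, against 13.3 and 14.0 CPM in the group-housed libraries. The groups did not overlap, and its log2 fold change was 0.37 (SE 0.10), with an unadjusted p of 0.00533 and an adjusted p of 0.663 in the edgeR test. Nfe2l2, which encodes the transcription factor NRF2 of the oxidative stress response, was at -0.13 (SE 0.08).

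Markers of cell types and neighbouring tissue also differed in level between the groups, and their part in the mitochondrial and nuclear values was not tested. The summed level of 8 oligodendrocyte markers was 9881 and 11554 CPM in the isolated libraries, against 12998 and 12016 CPM in the group-housed libraries, and all 8 were lower by fitted value with a median log2 fold change of -0.22. The 8 astrocyte markers summed to 4735 and 4704 CPM in the isolated libraries, against 5265 and 4899 CPM in the group-housed libraries, with 7 lower. The 8 microglia markers summed to 309 and 305 CPM in the isolated libraries, against 356 and 316 CPM in the group-housed libraries, with all 8 lower. Group-housed replicate 1 was the highest library for all 3 of these sums, as it was for the mitochondrial mRNAs.

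The 10 medial habenula markers summed to 1633 and 1655 CPM in the isolated libraries, against 1286 and 1183 CPM in the group-housed libraries, with all 10 higher and 2 passing the edgeR test. Those 2, Slc5a7 and Chrnb3 (edgeR adjusted p = 0.0227 for both), were the only genes to pass among all 17528 tested. The 10 thalamus markers summed to 1702 and 1496 CPM in the isolated libraries, against 1771 and 1889 CPM in the group-housed libraries, with all 10 lower. The 8 general neuron markers summed to 4856 and 4451 CPM in the isolated libraries, against 4921 and 4704 CPM in the group-housed libraries. Group-housed replicate 1 was the highest library for this sum too. The neuron markers had a median log2 fold change of -0.05, with 7 lower. The 8 lateral habenula markers summed to 2025 and 1845 CPM in the isolated libraries, against 1943 and 1864 CPM in the group-housed libraries. By fitted value 4 of them were higher and 4 lower in the isolated libraries. Slc17a6, 1 of the lower ones, also stands in the thalamus list. The 8 ependyma markers summed to 61.5 and 127 CPM in the isolated libraries, against 60.4 and 56.8 CPM in the group-housed libraries, and isolated replicate 2 stood apart. The choroid plexus markers summed to 66.9 and 79.8 CPM in the isolated libraries, against 44.6 and 149.9 CPM in the group-housed libraries. Endothelial and blood markers had median log2 fold changes of 0.03 and -0.11. No marker of these lists was at 0 in a library. In bulk tissue, fewer cells of a type and less RNA per cell cannot be told apart, so these values do not say in which cells the mitochondrial mRNAs differed.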

How the data were processed

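The authors deposited raw read counts per Ensembl gene, 1 column for each of the 4 libraries, and these counts were used throughout. A normalised value per gene that the authors also deposited for each library was not used. Per the labels' protocols, Trizol RNA and a stranded poly(A) kit were used. Per the submitters' processing notes, CASAVA, TopHat2 2.1.1, HTSeq, edgeR and GRCm38 were used, with no role given. The sources used here give neither the annotation release nor the strand setting nor the handling of reads with several matches, and such handling can change the counts of genes with near-identical copies.

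Symbols, exon lengths (the union of all annotated exons, so long variants lower a level per kilobase) and overlaps came from a GENCODE annotation of GRCm38, which named 53274 of 53465 identifiers. Of the 95 genes, 39 overlap exons of another gene (29 nuclear, 10 mitochondrial), and 19 nuclear genes share at least 10% of their 50-base words with another gene. The members and all lists were chosen with earlier results of these data known.

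CPM used TMM library sizes (factors 0.994 and 1.020 for isolated, 0.983 and 1.003 for group-housed replicates). The test was edgeR's (version 4.0.16, R 4.3.3) 2-sided quasi-likelihood test over 17528 genes passing its default low-count filter, with Benjamini-Hochberg adjustment at 0.05. The residual degrees of freedom were 2, the prior ones 6.55, and the common biological coefficient of variation 7.20%. SE were taken as the log2 fold change over the root of F, and 95% intervals use it with the t distribution. Fold changes are isolated over group-housed. Class medians carry no test. The fit was tested on simulated data. Pairs of libraries differed by a chi-square of 4.77 to 8.02 per degree of freedom, so none was a duplicate. Counts limit precision for genes under about 100 counts.

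Named genes were all mitochondrial mRNAs, for each nuclear class the 2 highest per kilobase and the 3 with the smallest p, all Sdh genes, the isoform pairs, the genes nearest the count limit, the largest change each way and, in each other list, the 2 with the smallest p, of which the text gives some. The F1 and c ring subunits were grouped by role after values were seen. Alternatives were other scalings (DESeq2 1.42.0 size factors, plain totals, no mitochondrial genes), filters, tests (DESeq2, limma-voom with limma 3.58.1, edgeR's exact test), each library left out, a replicate block, and exclusion of overlapping or copied genes.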

Additional observations from a re-analysis of the deposited data

How the results depend on the processing

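The fold changes of the mitochondrial mRNAs stayed negative in the median under every scaling, filter, test and exclusion that was run. Their median log2 fold change ranged from -0.29 (without genes overlapping another gene) to -0.19 (plain library totals) over the alternatives that kept all libraries, and from -0.34 to -0.13 with 1 library left out. Without overlapping genes only mt-Co2, mt-Nd3 and mt-Cytb remained, so the -0.29 was set by mt-Nd3. Both mt-Nd3 and mt-Co2 are among the genes with few counts, so that value says little about the mitochondrial mRNAs as a class. Of the oxidative phosphorylation genes, 0 passed in any test, scaling or filter with all libraries and no block. Over all genes, 15 passed with no filter on low counts, 52 with DESeq2 and 82 with edgeR's exact test. The count of genes was 1 to 221 with 1 library left out, the 221 without isolated replicate 1, and that of the oxidative phosphorylation genes was 0 to 1.

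With the replicate number as a block, 64 genes passed, among them 1 oxidative phosphorylation gene, mt-Nd6 (log2 fold change -0.50, edgeR adjusted p = 0.0194). Same-numbered libraries deviated together with a correlation of 0.139 over 2 pairs, and the labels do not say that a number marks a shared animal, batch or day, so the libraries share only a number. Leaving out 1 library gave mt-Nd6 a log2 fold change of -0.71 to -0.29, the lowest without isolated replicate 1. In such fits the lone library of a group is assumed to vary like the other group.

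With 1 library left out, the median log2 fold change of all nuclear genes ranged from -0.0994 to -0.00486. By class it ranged from -0.0976 to -0.00414 for nuclear complex I, from -0.0576 to -0.0144 for complex II, from -0.100 to 0.0147 for nuclear complex III, from -0.157 to -0.0193 for nuclear complex IV and from -0.101 to -0.00676 for nuclear complex V. It ranged from -0.328 to -0.134 for mitochondrial complex I, from -0.307 to -0.0871 for complex III and from -0.338 to -0.0860 for complex IV. The lowest of these came without group-housed replicate 2 and the highest without group-housed replicate 1. The cause was not tested.

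Among single genes, leaving out 1 library turned the direction of mt-Co3 (-0.338 to 0.269), Sdha (-0.0334 to 0.0536), Uqcr10 (-0.130 to 0.0557), Uqcr11 (-0.237 to 0.0692), Uqcrh (-0.151 to 0.0332), Cox4i2 (-0.237 to 0.0477), Cox6b1 (-0.170 to 0.0757), Cox6b2 (-0.145 to 0.0157), Cox7a2 (-0.157 to 0.0198), Atp5a1 (-0.0622 to 0.00471) and Atp5g1 (-0.0608 to 0.0601), none of which passed the test.

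For the other lists the range of the median with 1 library left out was -0.0155 to 0.0422 for complex I, -0.131 to -0.0555 for complex II, -0.135 to 0.00283 for complex III, -0.0561 to 0.0351 for complex IV and -0.0603 to 0.0133 for complex V assembly factors. It was -0.0116 to 0.0440 for the list of ubiquinone synthesis genes with Cycs, Cyc1 and Ndufab1, and -0.000209 to 0.0296 for RNA processing. It was -0.0335 to 0.0319 for regulators, -0.0431 to -0.00141 for the tricarboxylic acid cycle and -0.0505 to 0.00573 for carriers. With plain library totals the median was -0.0417 for complex V assembly factors, 0.0202 for RNA processing and 0.00442 for the tricarboxylic acid cycle, and with a mean of at least 5 CPM it was 0.0146 for RNA processing. Each of these medians changed direction in at least 1 of the settings given here, except that of the complex II assembly factors. With 1 library left out that median stayed negative.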
